A study of Mus musculus with 2 samples.

Results

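The epidermal growth factor (EGF) family of secreted ligands and the ERBB receptor tyrosine kinases they bind were examined in mouse mammary basal cells grown in 3D culture with or without TNF-α. The 10 genes, chosen by name from a table of 49492, were the ligand genes Areg, Ereg, Hbegf, Tgfa, Btc, Egf and Nrg1 and the receptor genes Egfr, Erbb2 and Erbb3. All 10 were found in the table. Basal cells of wild type adult female mice had been sorted from the mammary gland and embedded in matrix gel for 10 days. One culture received recombinant mouse TNF-α at 10 ng/mL, and the control culture received none. The common medium described in the methods held EGF protein and an insulin, transferrin and selenium supplement, so the receptors of both cultures were supplied with EGF from outside and the Egf counts refer only to the transcript made by the cells. Each condition was 1 library, and no difference given here has a replicate check.

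EGF family ligands are made as membrane-anchored precursors, and metalloproteases release the active part from the cell surface. Amphiregulin (Areg), TGF-α (Tgfa), EGF (Egf) and epigen (Epgn) bind EGFR, while HB-EGF (Hbegf), betacellulin (Btc) and epiregulin (Ereg) bind both EGFR and ERBB4, and neuregulins bind ERBB4 and, for the products of Nrg1 and Nrg2, also ERBB3. ERBB2 has no ligand of its own and ERBB3 has little kinase activity, so both act in pairs with another receptor. In the mammary gland amphiregulin is known as the ligand that carries the oestrogen signal for ductal outgrowth, from hormone-sensing luminal cells to their neighbours.

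The libraries held 44462275 counts (control) and 53487087 counts (TNF-α), so that a count of 10 was worth 0.224 and 0.188 CPM (counts scaled to a fixed library size, here with edgeR's TMM method). Differences are given as log2 ratios of CPM, TNF-α over control, with a prior count of 2 added. The interval beside each ratio is a 95% Clopper-Pearson interval of the share of the gene's counts that came from the TNF-α library. It covers counting error only, not the spread between cultures, and reads amplified by PCR are not independent molecules. Levels of different genes are compared per length, as TPM, in which each count is divided by the exon length in the table and each library is scaled to the same sum. TPM ratios lay 0.05 below the scaled ratios on the log2 scale over well counted genes (median shift -0.054), and ratios are therefore taken from scaled CPM.

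The basal label was first set against marker genes. The basal keratin gene Krt14 had 8276 TPM in the control library and 7574 TPM with TNF-α, and Krt5 had 3164 and 3435 TPM. Trp63, the transcription factor that maintains basal identity, had 70.4 and 69.6 TPM. Luminal keratin genes were also high in both libraries, with 1896 and 1715 TPM of Krt8, 1269 and 1010 TPM of Krt18, and 1510 and 820 TPM of Krt19. The RNA therefore held transcripts of basal and luminal type in both cultures. By flow cytometry the authors found mostly luminal cells in control colonies of their macrophage co-culture experiment, which also began from sorted basal cells. They also reported a larger share of basal cells in cultures with TNF-α. In bulk RNA, fewer cells of a type and less RNA per cell cannot be told apart.

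Areg was the member with the largest difference, and it was lower with TNF-α. It had 3126 counts without TNF-α and 722 with it. The control library was clearly the higher one, by 5.14-fold after scaling, a log2 ratio of -2.36 (interval -2.48 to -2.25). Among the 13609 genes with at least 200 counts over both libraries, 64 had a lower log2 ratio. Per length, Areg stood at 163 TPM in the control (exact Poisson interval 157 to 169) and at 30.4 TPM with TNF-α (28.3 to 32.7).

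Hbegf, a ligand that also binds heparan sulphate, differed in the other direction. It had 336 counts in the control and 630 with TNF-α, a log2 ratio of 0.65 (interval 0.46 to 0.85), or 1.57-fold. This was the highest ratio among the 10 genes, and 1094 of the 13609 well counted genes had a higher one. Its level was 8.97 TPM in the control and 13.6 TPM with TNF-α, and the Poisson intervals of these levels (8.03 to 9.98 and 12.6 to 14.7) did not overlap.

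Tgfa, whose product binds EGFR alone, was lower with TNF-α by a smaller margin than Areg. Its counts were 884 in the control and 718 with TNF-α, a log2 ratio of -0.55 (interval -0.70 to -0.41). The intervals of Areg, Tgfa and Hbegf did not overlap one another, so these 3 EGFR ligands differed between the libraries by unequal amounts beyond counting error.

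For the other EGFR ligands among the 10 no difference was detectable at this depth. Ereg had 155 and 197 counts in the control and TNF-α libraries, a log2 ratio of 0.09 (interval -0.22 to 0.41). Btc had 295 and 310 counts and a log2 ratio of -0.18 (interval -0.42 to 0.05). Egf was the least counted member, with 75 and 79 counts and a log2 ratio of -0.17 (interval -0.65 to 0.30). All 3 intervals hold 0, and that of Egf, the widest, runs down to -0.65, so its counts were too few to show a moderate difference.

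Nrg1, the neuregulin among the 10, had 436 counts in the control and 400 with TNF-α, a log2 ratio of -0.37 (interval -0.58 to -0.18). The control library was the higher one, within a 1.5-fold margin.

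The 3 receptor genes were well counted and differed little. Egfr had 4045 counts in the control and 5516 with TNF-α, a log2 ratio of 0.20 (interval 0.14 to 0.25). Erbb2 had 2598 and 2517 counts and a log2 ratio of -0.30 (interval -0.38 to -0.22). Erbb3, the partner that carries docking sites for PI3K, had 4428 and 3961 counts and a log2 ratio of -0.41 (interval -0.47 to -0.35). Egfr was thus slightly higher with TNF-α while Erbb2 and Erbb3 were slightly lower, each by more than counting error and by less than 1.5-fold.

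**Figure D1:**
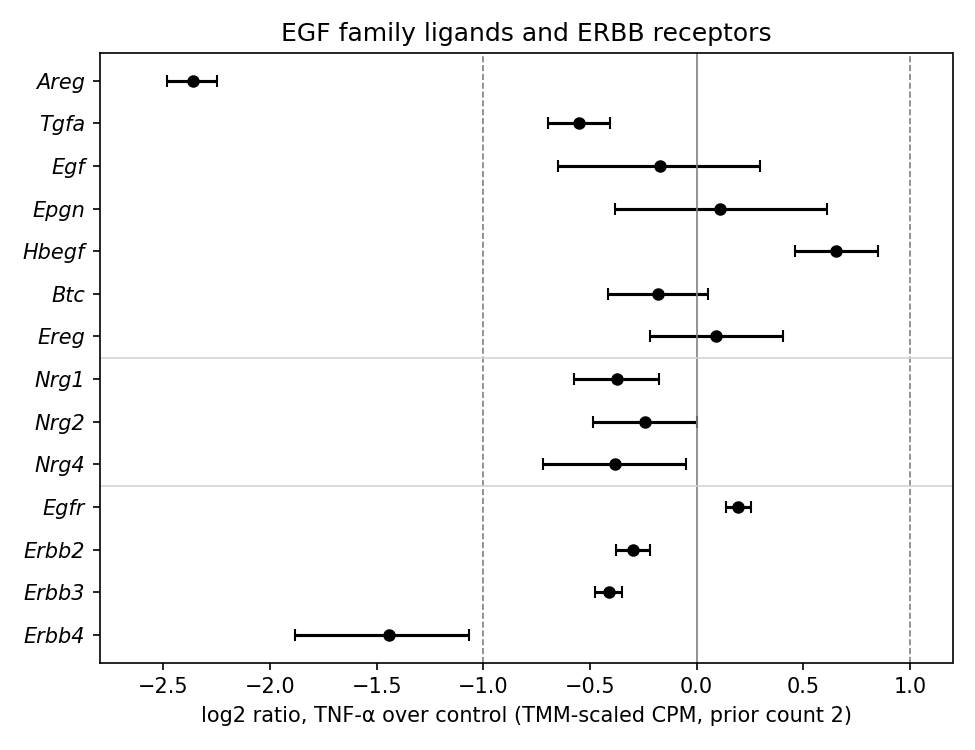
Log2 ratio of TNF-α to control for 14 genes of the family, grouped from top to bottom into EGFR ligands, neuregulins and receptors, with bars for the 95% counting interval and dashed lines at 2-fold. Areg at -2.36 and Erbb4 at -1.44 lie beyond the lower dashed line, and the other 12 genes lie between the lines.

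As a group, 3 of the 10 members lay above a log2 ratio of 0 and 7 below it, with a median of -0.24, while the median of all 20771 genes with at least 10 counts was 0.01. All 10 members passed that minimum. With 1 library per condition, a gene is called here when it passes a fold of 2, with no test. Among the 10, 0 were called higher, where 8.63% of the 20771 genes were, and 1 (Areg) was called lower, where 6.55% were. Among the 13609 genes with at least 200 counts these shares were 4.07% and 2.81%, and 9 of the 10 members, all but Egf, belong to that set. At a fold of 1.5, Hbegf was called higher and Areg lower, beside 15.6% and 13.4% of the 20771 genes. One call in each direction among 10 genes is near these shares, so the counts of calls do not set the group apart. Its median lay below that of the 20771 genes, with 7 of 10 members below 0. Whether the group differs from other genes was not tested. The counting interval left out 0 for 7 members, and it did so for 56.8% of the 20771 genes and 68.4% of the 13609 well counted genes. With all counts divided by 2, as would apply if both ends of a read pair had been counted, it left out 0 for 7 members and for 44.8% and 58.2% of these genes. At this depth an interval without 0 was therefore common in the table and does not set the members apart.

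The 5 remaining genes of the family are Epgn, Nrg2, Nrg3, Nrg4 and Erbb4. Erbb4, the receptor for neuregulins that is linked to milk production, was rare and lower with TNF-α, with 172 counts in the control and 74 with TNF-α, a log2 ratio of -1.44 (interval -1.88 to -1.07). It was the only one of the 5 past 2-fold. Epgn had 63 and 81 counts and a log2 ratio of 0.11 (interval -0.38 to 0.61). Nrg2 had 283 and 285 counts and a log2 ratio of -0.24 (interval -0.48 to 0.00061), and Nrg4 had 158 and 144 counts and a log2 ratio of -0.38 (interval -0.72 to -0.05). Nrg3 had 2 counts in each library, which is under the minimum, and gets no ratio.

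In the order of levels, Areg came first among the 11 ligand genes in both libraries, and the distance to the next ligand was much smaller with TNF-α. In the control library Hbegf (8.97 TPM) and Tgfa (8.62 TPM) followed. These neighbours did not differ beyond counting error at these lengths, although they did with the longest coding transcripts. Nrg2 (5.82 TPM) and Btc (4.13 TPM) came next, then Nrg1, Ereg, Epgn and Nrg4 between 2.67 and 1.65 TPM, each overlapping its neighbour. Egf was the lowest ligand with more than a few counts, at 0.42 TPM. With TNF-α, Hbegf at 13.6 TPM was second and stood apart from Tgfa at 5.67 TPM. Tgfa in turn overlapped Nrg2 at 4.74 TPM. Btc stood at 3.51 TPM, and Ereg, Epgn and Nrg1 lay between 2.44 and 1.98 TPM without separation. Nrg4 followed at 1.21 TPM and Egf at 0.36 TPM. The order of the ligands below Areg depended on the transcript length used.

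Areg made up most of the EGFR ligand transcripts in the control culture. Of the summed TPM of the 7 EGFR ligands, 85.9% was Areg in the control library and 52.2% with TNF-α, while the share of Hbegf was 4.73% and 23.3%. The sum itself was 190 TPM in the control and 58.3 TPM with TNF-α. Without Areg the remaining 6 ligands summed to 26.7 and 27.9 TPM. In scaled counts the 7 ligands together had a log2 ratio of -1.10 (interval -1.17 to -1.03), and the 6 without Areg had -0.10 (interval -0.19 to -0.0032). The lower ligand sum with TNF-α was thus almost wholly a matter of Areg.

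Among the receptors, Erbb3 had the highest level per length in both libraries, at 46.6 TPM in the control and 33.7 TPM with TNF-α. Erbb2 followed in the control at 31.6 TPM and Egfr at 22.6 TPM, each apart from its neighbour. With TNF-α, Egfr (24.9 TPM) and Erbb2 (24.7 TPM) did not differ beyond counting error at these lengths, although they did with the longest coding transcripts. Erbb4 was far below the others, at 0.88 and 0.31 TPM. Egfr was 22.2% of the summed receptor TPM in the control and 29.8% with TNF-α. The 4 receptors together had a log2 ratio of -0.15 (interval -0.19 to -0.11).

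**Figure D2:**
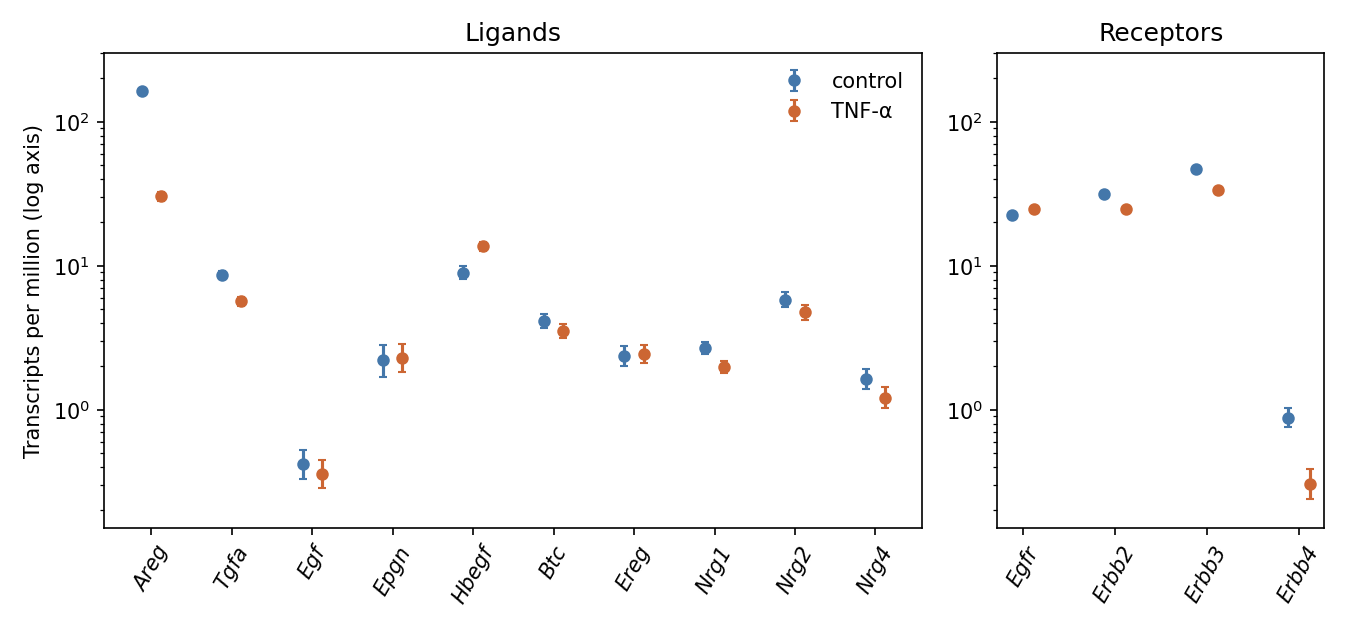
Level per length of ligand genes (left) and receptor genes (right) in the control library (blue) and the TNF-α library (orange), in TPM on a log axis, with bars for the 95% Poisson interval of the count. Areg is the highest ligand in both libraries, at 163 and 30.4 TPM, and Erbb4 is the lowest receptor, at 0.88 and 0.31 TPM.

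The EGFR ligand genes Epgn, Ereg, Areg and Btc lie in a cluster on chromosome 5 of GRCm38, and Areg differed from the other ligands there. From Epgn to Btc the cluster runs from 91027464 to 91402994, or 375531 bases. Epgn (91027464 to 91035215), Ereg (91074622 to 91093646) and Areg (91139599 to 91148432) are on the plus strand, and Btc (91357261 to 91402994) is on the minus strand. The end of Ereg and the start of Areg are 46.0 kb apart. The intervals of Epgn, Ereg and Btc all held 0, and that of Areg overlapped none of them. Of the 7 genes in the window 6 had at least 10 counts, and the others among them were the predicted genes Gm42532 (130 and 164 counts, log2 ratio 0.08) and Gm19619. Gm19619, which lies between Areg and Btc, had 64 counts in the control and 28 with TNF-α, a log2 ratio of -1.38 (interval -2.14 to -0.78). The window was chosen after its values had been seen.

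**Figure D3:**
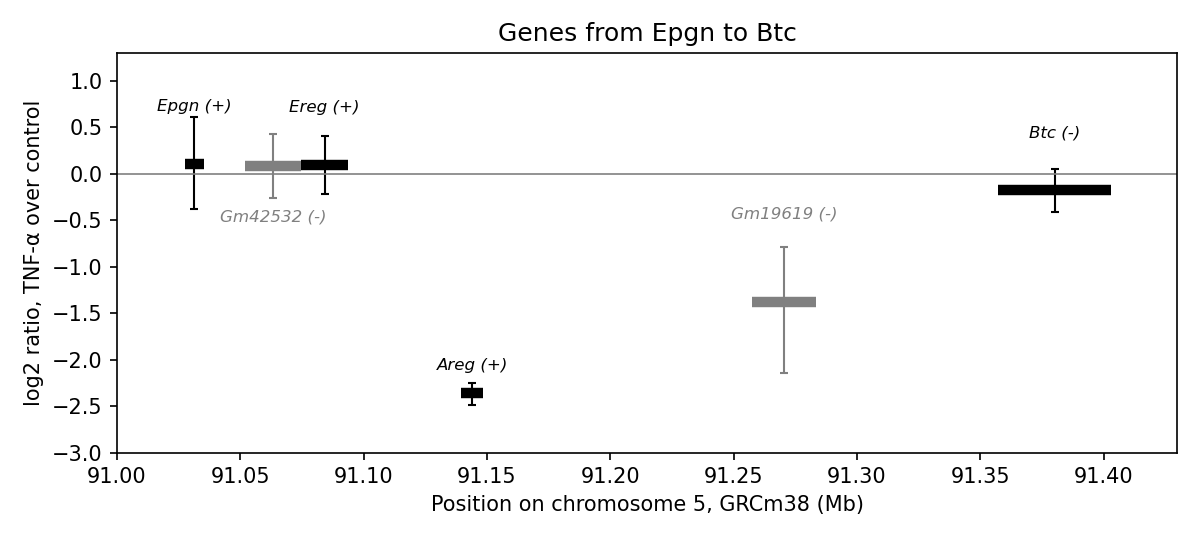
Log2 ratio of TNF-α to control against position on chromosome 5 (GRCm38, Mb) for the 6 counted genes from Epgn to Btc, with thick bars for the extent of each gene, thin bars for the 95% counting interval, family members in black and predicted genes in grey. Areg at -2.36 and Gm19619 at -1.38 lie well below 0, while Epgn, Ereg, Btc and Gm42532 have intervals that hold 0.

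The other members lie outside this cluster. Tgfa is on chromosome 6 (86195223 to 86275719), Hbegf on chromosome 18 (36504929 to 36515805), Egf on chromosome 3 (129677565 to 129755316) and Nrg1 on chromosome 8 (31814551 to 32884029). Egfr (16752203 to 16918158) and Erbb2 (98412470 to 98437716) are both on chromosome 11, and Erbb3 is on chromosome 10 (128567523 to 128589652). Exons of Ereg, Tgfa, Egf, Erbb2 and Nrg1 overlap exons of another listed gene on the opposite strand, for example Mien1 at Erbb2. Whether counting used the strand is not given in the sources used here, so the counts of these 5 genes are uncertain where reads are shared. Areg, Hbegf, Btc, Egfr and Erbb3 overlap no exon of another gene in the table.

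The promoter of Areg is shown because its gene had the largest difference among the members. The 250 bases before the RefSeq start of Areg (GRCm38.p6, chr5:91139349-91139598, plus strand) were searched on both strands for the cAMP response element TGACGTCA, the AP-1 site TGANTCA and the NF-κB consensus. Capitals mark the match.

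Areg: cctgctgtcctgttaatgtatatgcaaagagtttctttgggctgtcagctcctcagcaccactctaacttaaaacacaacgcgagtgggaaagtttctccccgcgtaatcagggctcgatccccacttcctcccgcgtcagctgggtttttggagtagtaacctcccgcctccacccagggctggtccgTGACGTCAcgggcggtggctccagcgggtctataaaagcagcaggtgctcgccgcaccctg

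The window held 1 cAMP response element, at positions -61 to -54 from the start, and no match to the other motifs. Of 32851 promoter windows of this length, 1.55% held that element, 6.75% held the AP-1 site and 7.25% the NF-κB consensus. RefSeq windows were matched for 10 of the 15 family genes, 11 windows in all. Ereg, Hbegf, Erbb3, Nrg1 and Nrg2 had no window and were not searched. Among the 11 windows, that of Areg was the one with a match to any of the 3 motifs. The windows of Epgn and Erbb2 and 1 window of Egf overlapped exons of the same gene. A match describes the letters in the window, and says nothing about binding.

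Genes that act in ligand shedding or restrain it were described as a list of 14, of which all passed the minimum. The most abundant was Timp3, which encodes an inhibitor of ADAM17, at 279 and 310 TPM and a log2 ratio of 0.21. Over all 20771 genes with at least 10 counts, 8.63% were past 2-fold higher and 6.55% lower. Among the 13609 well counted genes these shares were 4.07% and 2.81%. All counts of list genes past 2-fold below are to be read beside these shares. The median log2 ratio of the 14 was 0.14, with 1 past 2-fold higher and 0 past 2-fold lower. The gene past 2-fold was Rhbdl2, a rhomboid protease of the cell membrane, with 675 counts in the control and 1814 with TNF-α, a log2 ratio of 1.17 (interval 1.05 to 1.30). Adam17, the main sheddase of amphiregulin, TGF-α and HB-EGF, had 3484 and 6127 counts and a log2 ratio of 0.56 (interval 0.50 to 0.62). Rhbdf2, which encodes the iRhom2 protein that brings ADAM17 to the cell surface, had 681 and 1113 counts and a log2 ratio of 0.46 (interval 0.32 to 0.60). Both were higher with TNF-α within 1.5-fold, whereas Adam10, the main sheddase of EGF and betacellulin, had 6851 and 8431 counts and a log2 ratio of 0.05 (interval 0.0012 to 0.09). The lowest was Furin, a processing protease, at -0.58.

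Genes that restrain the receptors or remove them from the surface (17 genes, all past the minimum) had a median log2 ratio of -0.07. Beside 8.63% and 6.55% of the 20771 genes, 0 of these were past 2-fold higher and 1 was past 2-fold lower. That gene was Lrig1, which encodes a membrane protein that binds ERBB receptors and promotes their degradation. It had 9000 counts in the control and 5076 with TNF-α, a log2 ratio of -1.08 (interval -1.13 to -1.03). Errfi1, an inhibitor of the EGFR kinase that is itself induced by EGF signalling, had 1888 and 2317 counts and a log2 ratio of 0.04 (interval -0.04 to 0.13). Sh3kbp1, an adaptor in receptor uptake, was the highest at 0.39.

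Of 21 genes for adaptors and the RAS-ERK cascade below the receptors, 0 were past 2-fold in either direction. The shares over the 20771 genes were 8.63% and 6.55%, and the median log2 ratio of the 21 was -0.10. The range ran from -0.41 for Sos1, an exchange factor that activates RAS, to 0.67 for Ksr1, a scaffold of the cascade. Among 17 genes that ERK signalling induces, the median was -0.16. Beside 8.63% and 6.55% of the 20771 genes, 0 of the 17 were past 2-fold higher and 2 were past 2-fold lower. The 2 were immediate early genes. Fos had 11006 counts in the control and 4702 with TNF-α, a log2 ratio of -1.48 (interval -1.53 to -1.43), and Egr1 had 4396 and 2533 counts and a log2 ratio of -1.05 (interval -1.12 to -0.98). The ERK phosphatase gene Dusp6, by contrast, had 2870 and 3393 counts and a log2 ratio of -0.01 (interval -0.08 to 0.06), and Myc was the highest of this list at 0.58. Transcript amounts do not show phosphorylation of the receptors or ERK.

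Receptor genes of oestrogen, progesterone and prolactin were lower with TNF-α, and any link with the Areg difference was not tested. Esr1, which encodes oestrogen receptor α, had 2547 counts in the control and 1094 with TNF-α, a log2 ratio of -1.47 (interval -1.57 to -1.37). Pgr, the progesterone receptor gene and itself a target of oestrogen, had 7228 and 2970 counts and a log2 ratio of -1.53 (interval -1.60 to -1.47). Prlr, the prolactin receptor gene, had 5767 and 3119 counts and a log2 ratio of -1.14 (interval -1.20 to -1.08). These were the 3 genes past 2-fold lower in a list of 9 hormone receptor and luminal factor genes, whose median was -0.76. Over all 20771 genes, 6.55% were past 2-fold lower and 8.63% higher, and 2.81% and 4.07% of the 13609 well counted genes. The difference of the list from these shares was not tested. Foxa1, a cofactor of the oestrogen receptor, lay at -0.96, Gata3 at -0.76 and Elf5 at -0.62, while Cited1 and Wnt4 lay at 0.57 and 0.45. The gene past 2-fold higher, Tnfsf11 (RANKL), had 2 counts in the control and 16 with TNF-α, with an interval of the log2 ratio from 0.66 to 5.91, and the list median, that of Gata3, does not depend on where in that interval it lies. Exons of Adam17, Furin, Timp3, Lrig1, Ksr1, Krt5 and Cldn3, and of Nrg4 in the family, overlap those of another listed gene on the opposite strand, as for Erbb2. Prlr and Col3a1 each overlap a listed gene on the same strand, and Gata3 and Pdgfra overlap listed genes on both strands, so that their counts are uncertain whichever strand setting was used.

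Markers of cell types differed unevenly beside Areg, and their part in its difference was not tested. The 11 luminal markers summed to 5025 CPM in the control and 4419 CPM with TNF-α, a log2 ratio of -0.19, with Krt8 the most abundant. Of the 11, 3 were above 0, namely Csn3 at 1.89, the 1 past 2-fold, Cldn3 at 0.43 and Epcam at 0.30. The lowest were Kit at -0.94, Krt19 at -0.83 and Krt7 at -0.58, and Krt18 lay at -0.28. The 11 basal markers summed to 12740 and 12020 CPM, a log2 ratio of -0.08, with Krt14 the most abundant and with Oxtr, at -1.19, the 1 past 2-fold. The basal list was split, with 6 of 11 genes above 0. Of its contractile genes, Cnn1, Myh11 and Acta2 lay at -0.74, -0.51 and -0.19 and Mylk lay at 0.19, while Krt17, the integrin genes Itgb1 and Itga6, and Krt5 lay at 0.32, 0.27, 0.27 and 0.17.

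Marker genes of leukocytes and endothelium had few counts, and those of fibroblasts had more. The sort described in the methods removed cells bearing CD45, CD31 or TER119 and took basal cells by CD24 and CD29, and which cells of the culture the fibroblast gene counts came from was not tested. The 11 leukocyte markers, of which 6 passed the minimum, summed to 8.50 CPM in the control and 6.75 CPM with TNF-α. Their most abundant gene was Lyz2 at 5.70 and 4.41 TPM, the defining marker Ptprc had 26 and 38 counts, and Cd3e had 0 in both libraries. The 6 endothelial markers, of which 5 passed, summed to 7.41 and 6.80 CPM, with Cdh5 the most abundant at 1.69 and 1.91 TPM and Pecam1 at 117 and 114 counts. One of them, Cldn5, was past 2-fold lower, with 16 and 2 counts. The 8 fibroblast markers summed to 516 and 497 CPM, with 48.8 and 49.6 TPM of Col1a1, and Pdgfra had 2133 and 2519 counts and a log2 ratio of -0.01. Dcn, at 1.40, was the 1 fibroblast marker past 2-fold, while Pdgfrb (789 and 494 counts) lay at -0.92 and Col3a1 (5628 and 4250 counts) at -0.66.

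**Figure D4:**
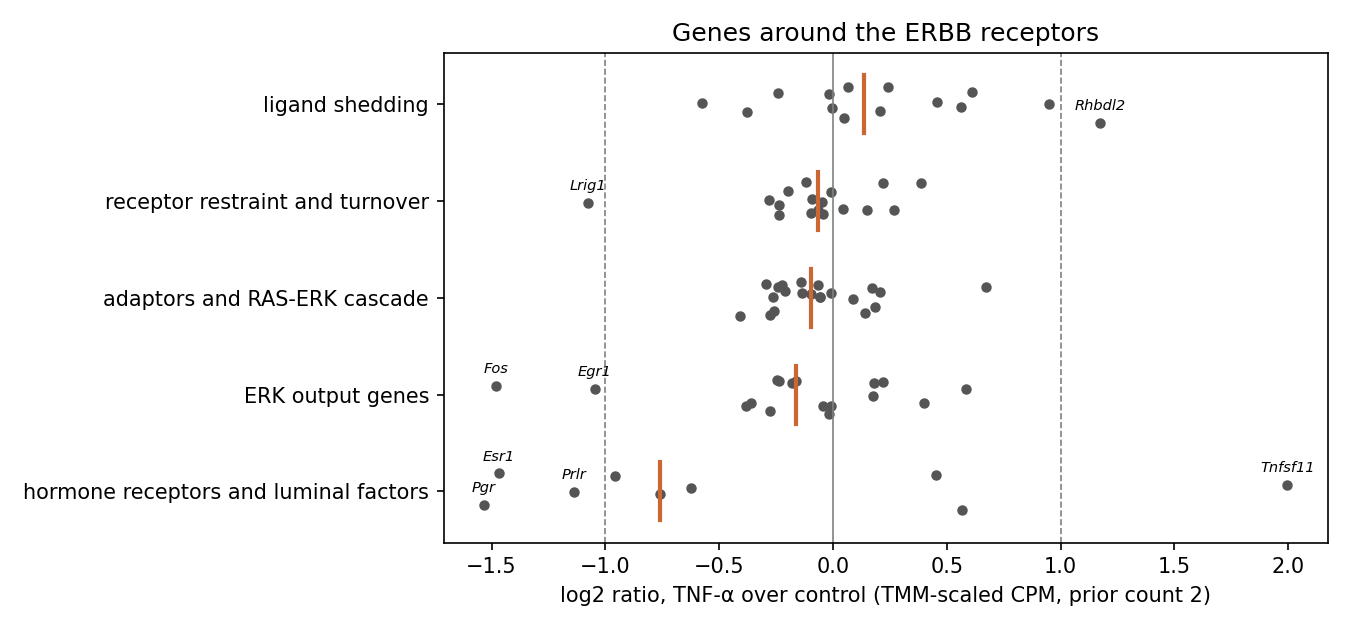
Log2 ratio of TNF-α to control for the genes of 5 lists around the ERBB receptors (1 point per gene with at least 10 counts, orange bar for the list median, dashed lines at 2-fold, vertical scatter for legibility only). Named points are those past 2-fold, of which Tnfsf11 rests on 2 and 16 counts, and the hormone receptor list has the lowest median at -0.76.

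The genes whose counts were most like those of a member were sought by Euclidean distance in log2 CPM over the 2 libraries, among genes with at least 200 counts. Nearest to Areg were Grik3 (3035 and 703 counts, distance 0.057), Ankrd35 (3240 and 778 counts, distance 0.12) and Cxcl15 (3494 and 711 counts, distance 0.16). Nearest to Hbegf were Rps29, Ccnyl1 and Ndufb6, at distances of 0.014 to 0.035. With 2 libraries such a likeness says only that both counts are close.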

How the data were processed

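RNA-seq libraries of 1 control and 1 TNF-α culture were prepared with a SMARTER mRNA kit per the labels, and sequencing was on a HiSeq X. The authors deposited raw read counts per gene with exon coordinates and summed exon length, and 1 column belongs to each library. The genome build named in the submitters' processing notes is GRCm38 (mm10). Of 15 family genes, 13 had the same coordinates in GENCODE M21. The aligner, counting tool and strand setting are not given in the sources used here.

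Counts were scaled by TMM in edgeR 4.0.16 (R 4.3.3), and log2 CPM was computed with a prior count of 2. Genes with at least 10 counts over both libraries were compared. A quasi-likelihood fit needs replicates and was not possible, hence a call is a fold over 2 and no p-value is given. The fold rule was tested on simulated data with counting error only, which cannot show how often the spread between cultures gives a call. Other software was Python 3.11.15 with scipy 1.17.1, numpy 2.4.6, pandas 2.3.3 and matplotlib 3.10.9. The alternatives tried were DESeq2 1.42.0 size factors, upper quartile scaling, total counts, prior counts of 0.5 and 5, counts divided by 2, other filters and a fold of 1.5. Named genes are the family, pathway list genes past 2-fold with at least 200 counts, the highest and lowest of each pathway list, and the most abundant and defining markers, and others were named after their values were seen. The members and lists were chosen with earlier results of these data known. Protein sequences were not used here.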

Additional observations from a re-analysis of the deposited data

How the results depend on the processing

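No paired analysis was possible because the control and TNF-α conditions were 1 library each. Under upper quartile scaling, DESeq2 size factors, total counts, both other prior counts, counts divided by 2 and both filters, every member's log2 ratio stayed within its counting interval, from -2.38 to -2.36 for Areg, from 0.64 to 0.65 for Hbegf and from 0.18 to 0.20 for Egfr. With a fold of 1.5, 1 member was called higher. Over all genes the counts of 1793 higher and 1360 lower were 2695 and 2981 without a filter on low counts, 845 and 649 with at least 1 CPM in a library, and 3246 and 2788 with a fold of 1.5, since fewer or more genes enter or the threshold is lower. Under the 6 other settings they lay between 1276 and 1907 and between 974 and 1521. The median of the hormone receptor list was -0.86 with counts divided by 2 and with at least 1 CPM.

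Levels depend on the length used. With the longest coding transcript of GENCODE M21, chosen after seeing the data, Areg stood at 131 and 24.4 TPM and stayed first among ligands, and Erbb3 stayed first among receptors at 37.6 and 27.1 TPM. With TNF-α, Egfr (22.2 TPM, interval 21.6 to 22.8) then stood apart from Erbb2 (20.7 TPM, 19.9 to 21.5). Tgfa (9.96 TPM, interval 9.32 to 10.6) then stood apart above Hbegf (7.22 TPM, 6.47 to 8.03) in the control library. Btc stood above Nrg2 in both libraries (5.23 against 4.72 TPM and 4.44 against 3.84 TPM, with overlapping intervals), and with TNF-α Nrg1 (3.04 TPM) and Nrg4 (3.08 TPM) stood above Ereg (1.96 TPM) and Epgn (1.89 TPM). In the control library Nrg4 moved most, from 1.65 to 4.18 TPM, and Egf (0.42 to 0.80 TPM) and Nrg1 (2.67 to 4.11 TPM) also moved by over 1.5 times.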

Other observations

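Areg is known as a target of oestrogen receptor α, of YAP and TAZ and of cAMP signalling, and 3 lists of other such targets were added after the data were seen. They are given as values without an explanation. Each list is to be read beside the shares of the 20771 genes, 8.63% past 2-fold higher and 6.55% lower. Of 9 oestrogen-responsive genes 8 passed the minimum, with 0 past 2-fold higher, 2 past 2-fold lower and a median log2 ratio of -0.32 (-0.09 with no filter on low counts, where Tff1 enters with 0 counts in both libraries). The 2 were Pgr and Greb1, a cofactor of the oestrogen receptor, which had 2454 counts in the control and 663 with TNF-α, a log2 ratio of -2.14 (interval -2.27 to -2.02). Ctsd and Igfbp4, from the same list, lay at 0.47 and 0.59, and Myb at 0.12, while Cxcl12, Rara and Xbp1 lay at -0.58, -0.56 and -0.09. Exons of Ctsd, Myb, Ctgf and Crem overlap those of other listed genes, so their counts are uncertain where reads are shared.

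Of 12 YAP and TAZ target genes, 0 were past 2-fold higher and 1 was past 2-fold lower, beside 8.63% and 6.55% of the 20771 genes. The median of the 12 was -0.16. The most abundant, Ctgf, had 18519 counts in the control and 19853 with TNF-α, a log2 ratio of -0.15 (interval -0.18 to -0.12). F3, which encodes tissue factor, was the lowest at -1.03, and Ankrd1 was the highest at 0.80.

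Of 9 cAMP-responsive genes, 1 was past 2-fold higher and 2 were past 2-fold lower, beside 8.63% and 6.55% of the 20771 genes. The median of the 9 was -0.23 (0.06 with at least 1 CPM in a library). Nr4a1, an orphan nuclear receptor gene of the immediate early class, had 5630 counts in the control and 2048 with TNF-α, a log2 ratio of -1.71 (interval -1.78 to -1.64), and Fos was the other lower gene. Pde4b, which encodes a phosphodiesterase that breaks down cAMP, had 3079 and 7774 counts and a log2 ratio of 1.08 (interval 1.02 to 1.14). Pde4d, Crem and Sik1 lay at 0.58, 0.35 and 0.34, while Per1, Nr4a3 and Nr4a2 lay at -0.42, -0.34 and -0.23.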
